A study of Homo sapiens with 2 samples.

Results

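The regions described are 323 broad PRMT5 peaks, out of 2840 peaks (11.4%) in the list of 1 chromatin immunoprecipitation library. They were selected on 2 measured values, the width of the peak and the number of peaks around it. Peaks on the mitochondrial sequence (1) and on chromosome Y (24) were left out, and so were 611 peaks in 24 windows of 1 Mb that held 10 or more peaks. Of the 2204 peaks that remained, 323 (14.7%) spanned 300 bp or more, and these are called the broad peaks below. The library was made from untreated MDA-MB-231, a long-established line of human breast cancer cells with mesenchymal traits, and was precipitated with a rabbit antibody against PRMT5. The series also holds 1 input library of the same untreated cells, which was not analysed here. With 1 library of 1 cell line, the values carry no measure of the spread between cultures, and nothing was tested between groups. The read depth is unknown, because a peak list holds no read counts.

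PRMT5 is an arginine methyltransferase that places symmetric dimethyl marks on histone tails and on the Sm proteins of the spliceosome, mostly in a complex with WDR77. It has no known DNA-binding domain of its own, so its place on chromatin depends on other proteins. At a heavily transcribed gene, RNA polymerase II continues past the end of the messenger RNA before it is released, and splicing and cleavage factors travel with it. Whether broad peaks lie at the ends of such genes or at promoters was the question put to these regions. It could be answered for few of them, since no complete gene annotation of hg19, the build of the list, and no expression values were used here. Peaks are therefore given by position and chromosome band, and by gene only where a table labelled or inferred to be hg19 gave the gene's position.

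Most of the broad peaks were broad only by comparison with the rest of the list. Width is the distance between the ends of a peak. The median was 389 bp, the quartiles were 336 and 556.5 bp, and 227 peaks (70.3%) were narrower than 500 bp. A further 64 spanned at least 500 but under 1000 bp, and 32 (9.91%) spanned 1000 bp or more, up to 3665 bp. The 323 covered 174 kb, which was 32.3% of the bases in peaks outside the dense windows. At the threshold itself, 3 peaks spanned exactly 300 bp, and they scored 19.2 at 5p13.2, 8.74 at 6q14.3 and 13.0 at 7q31.1. Just outside it, 2 peaks spanned 299 bp, and they scored 27.7 at 1q42.2 and 4.46 at 20p12.1. The score comes from the authors' peak caller and was read as the −log10 of its q-value. Score and width come from the same reads, so the scores describe the selected peaks and support nothing further.

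The scores of the broad peaks had a median of 14.6, quartiles of 9.05 and 26.9 and a range of 2.18 to 201. The 1881 narrower peaks outside the dense windows had a median of 7.14 and quartiles of 5.12 and 10.2. A score above 20 was reached by 114 broad peaks (35.3%) and by 75 narrower ones (3.99%). Of the 45 peaks with a score above 40, 40 were broad. Within the broad peaks the median score was about the same in the lower width classes, 13.99 under 500 bp and 14.1 from 500 to under 1000 bp, and it was 30.4 at 1000 bp or more.

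**Figure D1:**
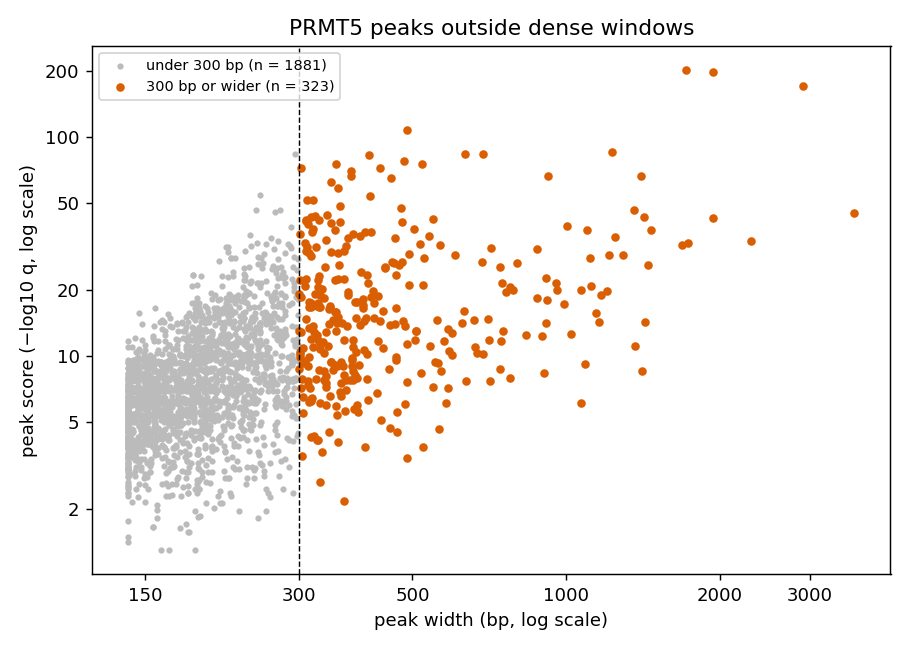
Width (bp, log scale) against score (−log10 q, log scale) for each peak outside the dense windows of the single PRMT5 library. Grey points are the 1881 peaks under 300 bp and orange points the 323 broad peaks, with a dashed line at 300 bp. High scores occur both among compact broad peaks of 300 to 500 bp and among peaks over 1000 bp, and 3 wide peaks stand apart at 201, 197 and 170.

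High scores were found in peaks of different shapes. The highest score, 201, belonged to a peak at 6p21.33 (chromosome 6, 30709417 to 30711132, 1716 bp). The next were 197 at 1p22.3 (chromosome 1, 86048982 to 86050919, 1938 bp) and 170 at 17q23.1 (chromosome 17, 57919644 to 57922557, 2914 bp). Of the 30 highest-scoring broad peaks, 7 (23.3%) spanned 1000 bp or more, against 9.91% of all broad peaks. Those narrower than 500 bp numbered 19 (63.3%), against 70.3% of all. The fourth was a compact peak at 1p22.2 (chromosome 1, 91852718 to 91853204) that scored 107 over 487 bp, and the nearest other peak lay 2310 kb away. Other compact and isolated peaks were at 5q13.2, 10p13 and 8q13.3. They scored 74.7, 72.2 and 72.0 over 354, 302 and 432 bp, and the distances to the nearest peak were 749, 1120 and 2770 kb. In all, 8 of the 30 were the only peak of their 1 Mb window. No filter for repeated or poorly mappable sequence was applied here. A high score, at an isolated peak or at one with close neighbours, therefore cannot be told apart from a pile-up of reads from repeated sequence.

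The 15 widest broad peaks spanned 1362 bp or more, and their scores ranged from 8.52 to 201 around a median of 37.6. Of the 15, 5 (33.3%) were among the 30 with the highest scores, against 9.29% of all broad peaks. The widest of all lay at 6p11.1 in a band marked as centromeric (chromosome 6, 58776197 to 58779861). It scored 44.6 and had another peak 0.125 kb away. Peaks at Xp11.3 (2298 bp, score 33.3) and 8q24.21 (1941 bp, score 42.5) followed the peak at 17q23.1 in width. The lowest of the 15 lay at 12q24.31 (chromosome 12, 125394164 to 125395574), where 1411 bp scored 8.52. A large width thus came with low as well as high scores.

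Positions relative to genes were measured with small tables that come with the pyranges and GenomicFeatures software packages. The GenomicFeatures table is labelled hg19. The pyranges tables name no build, and hg19 was inferred for them, so distances at their genes depend on that. The positions of BTD, GAPDH, GAS5, RNU5E-1 and LOC101928626 below all come from pyranges. Together the transcript tables of both packages cover 427 genes, 144 of them on chromosome 1, and they are not an even sample of the genome. This comparison was chosen after the data were seen. By peak midpoint, 4 broad peaks lay at the 3′ end of a transcript, defined as 1 kb before to 5 kb past the end, at 3 genes. Another 2 lay within 1 kb of a start, and 0 lay elsewhere in a gene. Of the 1881 narrower peaks, 2 lay at a 3′ end, 0 at a start and 9 elsewhere in a gene. The midpoints of the other 317 broad and 1870 narrower peaks fell in none of these classes. Of those 317, 5 lay within 5 kb of a sampled gene, 4 of them before LOC101928626 and 1 before TBC1D12. Such counts are too small to give a share of promoters or 3′ ends. The stretch counted as a 3′ end was also longer than that counted as a start, so the counts of 4 and 2 cannot be compared directly.

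At GAPDH, a glycolytic enzyme gene transcribed at a high level in most cells, a pair of broad peaks lay past the end and none lay over the start or the body. The transcript NM_001289745 runs on the plus strand of chromosome 12 from 6643683 to 6647537. The first peak, 6647713 to 6648013, began 175 bp past that end and scored 9.90. The second, 6648096 to 6648496, began 558 bp past it and scored 16.6. GAS5, a noncoding RNA gene that hosts small nucleolar RNAs, lies on the minus strand of chromosome 1 from 173833037 to 173837129. Its peak, 173831444 to 173832464, was 1021 bp wide, scored 12.6 and began 572 bp past the 3′ end in the direction of transcription. BTD, the biotinidase gene, had a compact peak of 328 bp (chromosome 3, 15689145 to 15689472) that scored 41.7 and began 3 bp past the end of NM_001281725. A narrower peak of 152 bp with a score of 8.66 lay inside the same gene. At each of these 3 genes the broad peaks lay wholly outside the longest listed transcript, on its downstream side.

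The other sampled genes with a broad peak within 5 kb did not show that position. RNU5E-1, a gene of the U5 small nuclear RNA of the spliceosome, lies on chromosome 1 from 11968211 to 11968329 and was covered whole by a peak of 407 bp that scored 10.2. For a gene of 119 bp, a peak at the start cannot be told apart from one at the end. LOC101928626 at 1p36.33 had 5 broad peaks, all upstream of its start, the nearest of them 58 bp away with a score of 18.1. TBC1D12 on chromosome 10 had a broad peak of 355 bp with a score of 13.0, whose near edge was 4438 bp before the start.

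**Figure D2:**
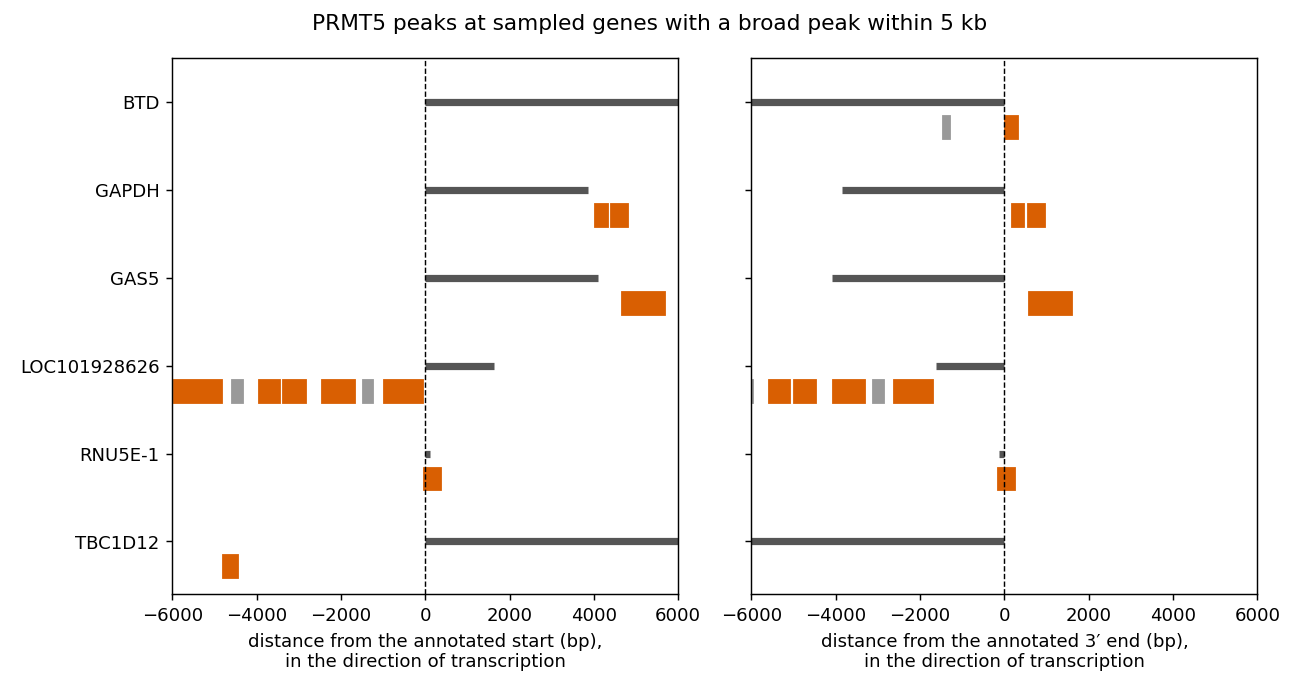
Peaks outside the dense windows at the 6 sampled genes that had a broad peak within 5 kb, placed by distance (bp) from the annotated start on the left and from the annotated 3′ end on the right. Dark lines are transcripts, orange boxes broad peaks and grey boxes narrower peaks; the orange boxes of BTD, GAPDH and GAS5 start 3 to 572 bp past the end, those of LOC101928626 and TBC1D12 lie before the start, and that of RNU5E-1 covers the gene.

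A further pyranges table gives single exons on chromosome X without the rest of their transcripts. For exons of transcripts not sampled above, 2 broad peaks lay within 5 kb. At TMSB4X, which encodes the actin-binding peptide thymosin beta 4, a peak of 1732 bp (12995425 to 12997156) scored 32.7 and began 78 bp past an exon of NM_021109 that runs from 12994896 to 12995346. The other, a peak of 568 bp that scored 8.55, began 1247 bp past an exon of DNASE1L1 in the direction of transcription. DNASE1L1 encodes a protein of the DNase I family. Narrower peaks lay within 5 kb of exons of CLDN2 and FLNA, with scores of 6.44 and 7.24. An exon alone does not place a peak relative to the end of its gene. Nor does it assign the peak to that gene, since genes missing from the table may lie nearer.

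Lists of genes known for high transcription in many cells could hardly be examined, because the sampled transcripts hold few of them. Of 8 glycolysis genes, 1 was sampled, GAPDH, and of 19 abundant noncoding RNA genes, 1 was sampled, GAS5. Both had a broad peak within 5 kb, as given above. Of 25 genes of adhesion, matrix and secreted proteins, CAV1 and CAV2, the genes of the caveola coat proteins, were sampled, and 0 had one. Among genes silent in most cells, SFTPC, a lung surfactant gene, and the olfactory receptor genes OR12D2 and OR2K2 were sampled, and 0 had one. None of the 88 ribosomal protein, 28 cytoskeletal, 45 immediate early and stress, 69 histone, 14 translation and RNA-binding factor, 8 YAP-TEAD target or 9 PRMT5 complex and substrate genes was sampled. For those lists nothing is known from these tables beyond the single exons of TMSB4X and FLNA, which are cytoskeletal genes. Among all 427 sampled genes, BTD, RNU5E-1, LOC101928626 and TBC1D12 also had a broad peak within 5 kb, and none of them is on a list. The lists were chosen with earlier results of these data known, so a link to high transcription was not tested.

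The share of broad peaks with a close neighbour was highest at middle widths, but its interval overlapped that of the widest peaks. Another peak of any width lay within 10 kb of 117 of the 323 (36.2%, 95% exact interval 31.0 to 41.7%). The share was 29.5% (23.7 to 35.9%) under 500 bp, 59.4% (46.4 to 71.5%) from 500 to under 1000 bp and 37.5% (21.1 to 56.3%) at 1000 bp or more. For the narrower peaks it was 22.5% (20.7 to 24.5%). Conversely, 51 broad peaks (15.8%, 11.99 to 20.2%) and 519 narrower ones (27.6%, 25.6 to 29.7%) were alone in their 1 Mb window. Density was part of the selection, so these shares are descriptions, and the intervals cover the counting of peaks only. They treat peaks as independent, although some broad peaks are neighbours of one another.

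Counted as runs within 10 kb, the broad peaks formed 293 runs, of which 269 held a single peak and 24 held the other 54 peaks. The longest run, of 5, was the one upstream of LOC101928626, between 564448 and 570340 on chromosome 1, with scores of 13.0 to 21.0. At 21p11.2, on the short arm of an acrocentric chromosome, 3 peaks stood within 2.25 kb and all were high, at 64.7 to 83.1. Whether the sequence under these runs is repeated elsewhere, as in copies of mitochondrial or ribosomal DNA, was not checked. At 6q13, 3 peaks stood within 2.74 kb and were lower, at 6.17 to 18.4. The run of 3 at 1q21.2 stretched over 19.6 kb and scored 4.12 to 13.99. At 20q11.22, 2 compact peaks within 6.98 kb scored 82.7 and 44.0. Peaks of 1 run thus had scores of a similar order at 21p11.2 and 1p36.33, but not in every run: at 10q23.31, neighbours within 1.91 kb scored 65.9 and 5.10.

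The share of broad peaks in G-negative chromosome bands, which stain lightly and are rich in genes, was 178 of 323 (55.1%, 95% exact interval 49.5 to 60.6%). These bands hold 42.4% of the bases of chromosomes 1 to 22 and X. Shares of bases here include the dense windows, from which none of the peaks counted here came. The share was 52.4% (45.7 to 59.1%) under 500 bp, 57.8% (44.8 to 70.1%) from 500 to under 1000 bp and 68.8% (49.99 to 83.9%) at 1000 bp or more. For narrower peaks it was 50.4% (48.1 to 52.7%), so the interval of all broad peaks overlapped that of the narrower ones. Dark bands, which hold 29.8% of the bases, held 15.5% of broad and 19.9% of narrower peaks. 

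**Figure D3:**
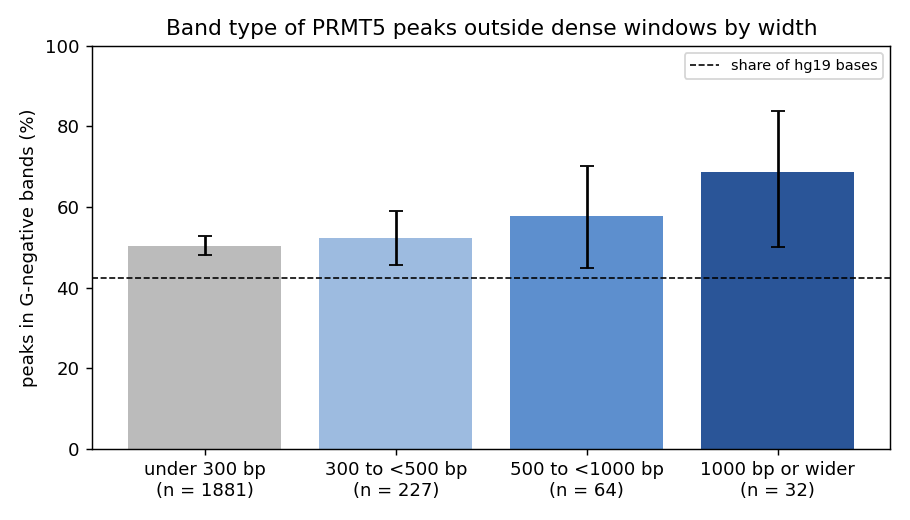
Share (%) of peaks outside the dense windows that lay in G-negative bands, by peak width, for the single PRMT5 library. Bars start at 0, and error bars are exact 95% binomial intervals for the counting of peaks. The dashed line is the share of hg19 bases in such bands, 42.4%, with the dense windows included. The bars stand at 50.4, 52.4, 57.8 and 68.8% with overlapping error bars.

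The share of peaks that were broad varied between chromosomes. It was highest on chromosome 17, at 30 of 102 (29.4%, 95% exact interval 20.8 to 39.3%), and lowest on chromosome 4, at 6 of 100 (6.0%, 2.23 to 12.6%). On chromosome 3 it was 12 of 141 (8.51%, 4.48 to 14.4%). Chromosomes 1 and 10 had 43 of 222 (19.4%) and 23 of 122 (18.9%), and each held 5 of the 32 peaks of 1000 bp or more. Chromosome 10 also held 7 of the 30 highest scores, against 23 of all 323 broad peaks. Several of the 7 shared a band, at 10q11.22 or at 10p13. Several of the 30 broad peaks on chromosome 17 lay close together at 17p11.2, between 18965148 and 19119941. The interval of that chromosome treats them as independent. The shares by chromosome were compared as counts and not tested.

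**Figure D4:**
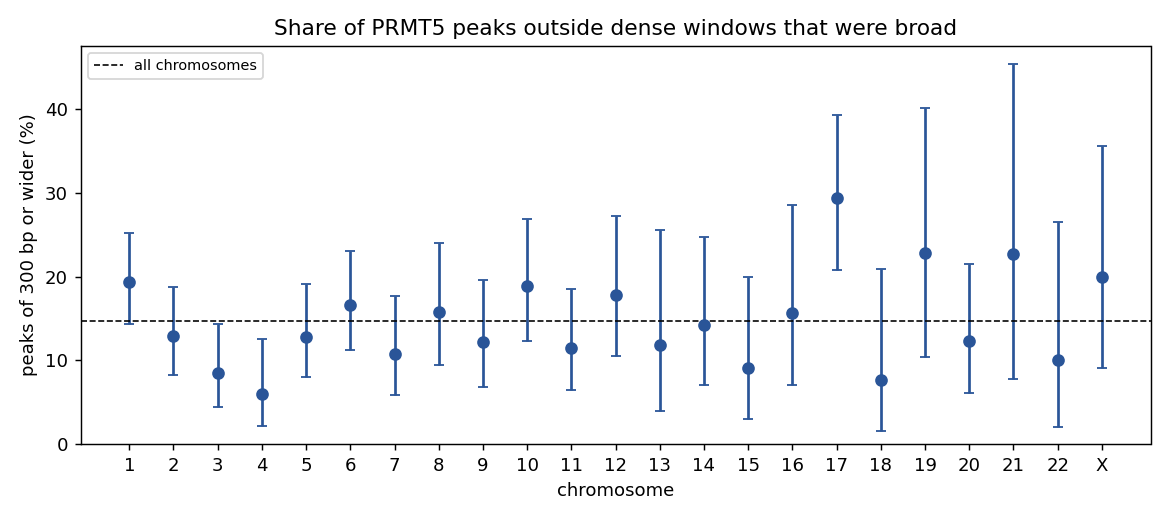
Share (%) of the peaks outside the dense windows that were broad, for each chromosome of the single PRMT5 library. Points are shares, error bars exact 95% binomial intervals for the counting of peaks, and the dashed line is the share over all chromosomes, 14.7%. The interval of chromosome 17 lies above the line and those of chromosomes 3 and 4 below it. The intervals treat peaks as independent, although several on chromosome 17 lay close together at 17p11.2.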

How the data were processed

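Peak intervals and 1 score per peak were used as deposited for 1 PRMT5 library. The −log10 unit of the deposited score was inferred: the file has no header, and its smallest value, 1.30279, lies just above the −log10 of 0.05. The submitters' processing notes name CASAVA 1.4, Bowtie2, MACS2 and hg19; the control and settings are not given in the sources used here. Windows of 1 Mb were assigned by peak midpoint, and positions are counted from 1. Peaks in repeated or poorly mappable sequence were not filtered out here. Bands came from circlize 0.4.16. Transcripts came from example tables of pyranges 0.1.4, which name no build, and of GenomicFeatures 1.54.1, labelled hg19. In the former, 15 of 500 transcripts carry hg19-style haplotype names, and 0 ended beyond an hg19 chromosome. Of the exons shared with the pyranges exon table, 3 of 3 were identical. These checks do not settle the build, since that exon table names none either and another build could pass them. Symbols of the pyranges transcripts came from their own table. Those of the GenomicFeatures genes and of the single exons came from RefSeq (GRCh38.p14), whose coordinates were not used. Promoter and 3′ shares over all peaks and GC content were planned and not computed, for want of an hg19 annotation and genome. Described individually were members among the 30 highest-scoring and 15 widest, the longest runs, peaks at the threshold and those at genes a table located. The members and lists were chosen with earlier results of these data known. Selection and the number of runs were tested on simulated data. Python 3.11.15 was used with pandas 2.3.3, numpy 2.4.6, matplotlib 3.10.9 and scipy 1.17.1.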

Additional observations from a re-analysis of the deposited data

How the results depend on the processing

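With a minimum width of 200 bp in place of 300 bp there were 1067 broad peaks with a median score of 10.7, and with 500 bp there were 96 with a median of 18.7. The share in G-negative bands was 61.5% at 500 bp. The 161 highest-scoring broad peaks had a median of 27.0, which follows from that choice. The share with another peak nearby, 36.2% within 10 kb, was 19.8% within 1 kb and 65.6% within 100 kb. Dropping windows with 5 or more or with 20 or more peaks gave 225 and 373 broad peaks, shifting the window borders by 0.5 Mb gave 326, and counting peaks within 10 kb once gave 293. At the sampled genes, starts numbered 1 in place of 2 within 500 bp, and also with the 3′ end decided first. The count at 3′ ends, 4, was 5 with a limit of 10 kb past the end and with the 3′ end decided first. The alternatives on bands and sampled genes were chosen after seeing the data. Those for promoters, 3′ ends and GC content over all peaks were not run. The read depth is unknown. No paired analysis was possible because PRMT5 and input have 1 library each.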
